A study of Mus musculus with 75 samples.

Results

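The genes described here encode 10 extracellular proteases that cleave the matrix around cells, namely Mmp2, Mmp3, Mmp10, Mmp13, Mmp14, Mmp19, Adamts1, Adamts4, Adamts5 and Adamts9. They were chosen by symbol. All 10 of 10 were found among the 21051 symbols that the 2 deposited count tables share. The libraries are Smart-seq2 RNA-seq of cells labelled enteric glial cells (EGC), the glia of the gut wall, from mice that carry the Plp1eGFP reporter, in which a promoter active in glia drives green fluorescence. Adult Plp1eGFP mice without treatment gave the myenteric plexus (MP) and the submucosal plexus (SMP) of colon (n = 5 each) and small intestine (SI, n = 6 each). Further Plp1eGFP mice gave the MP of both regions 2 h after a single intraperitoneal injection of PBS or of 2 mg/kg LPS, a bacterial endotoxin from E. coli (n = 4 per region and treatment). Mice labelled Gpr37WT; Plp1eGFP (here wild type, WT) and Gpr37-/-; Plp1eGFP (knockout, KO) gave the MP of both regions 24 h after the same injections. Those groups held 6 PBS and 4 LPS libraries of WT SI, 4 and 5 of WT colon, 4 and 5 of KO SI, and 5 and 4 of KO colon. A mouse at 24 h could give both regions, and for the other experiments the labels do not say that libraries of a group came from separate animals, so their p-values measure only the spread between libraries.

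Matrix metalloproteinases (MMPs) are zinc enzymes that together degrade collagens, gelatins, laminins and proteoglycans, and most are secreted as inactive precursors. The ADAMTS enzymes described here cut large proteoglycans such as versican, aggrecan and brevican. Tissue inhibitors of metalloproteinases (TIMPs) block them, and injury and endotoxin are known to induce several of these enzymes in stromal cells, macrophages and glia.

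The untreated libraries held 2547296 to 9002546 counts each, those at 2 h 1990744 to 7883251 and those at 24 h 2882539 to 33283346. Levels are given as CPM, the share of a library's counts scaled by edgeR's TMM factor, on which 3 counts equal 0.329 to 1.11, 0.359 to 1.46 and 0.0933 to 1.09 CPM in the 3 experiments. All 8 glial markers listed were measured, and their summed level was 6176 to 14211 CPM in MP and 545 to 5474 CPM in SMP of untreated mice. Fibroblast markers (8 genes) summed to 1629 to 17413 CPM in the same libraries and smooth muscle markers (6 genes) to 59.0 to 20541 CPM, so the libraries were not of glia alone. In such bulk libraries fewer cells of a type and less RNA per cell cannot be told apart. At 24 h mitochondrial genes took a median of 15.4% of counts in the 12 libraries from mice with numbers up to 10, and 4.57% in the 25 from mice numbered 11 and above. Of the 19 WT libraries 4, all after LPS, held 3 or fewer counts of Gpr37, namely both of mouse 3 and the colon libraries of mice 5 and 8, as did 17 of 18 KO libraries. For members called or near the threshold at 24 h, and for the called inhibitors, substrates and other proteases, the fit on mice numbered 11 and above is therefore given as well. That fit leaves 2 LPS libraries in each WT region, those of mice 13 and 16. In WT colon 3 LPS and 0 PBS libraries came from mice numbered up to 10, and in WT SI 2 and 1. Over all mice, LPS and the mouse number division are therefore partly mixed in WT.

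Adamts4 (chromosome 1, 171250421 to 171260637, GRCm38), a proteoglycan-degrading enzyme called an aggrecanase, was the 1 member called higher 2 h after LPS in both regions. In SI it stood at 0, 1.95, 3.21 and 4.64 CPM in the 4 PBS libraries and at 75.6, 93.8, 127 and 191 CPM in the 4 LPS libraries. In colon the PBS libraries held 0, 3.00, 3.03 and 7.58 CPM, and the LPS libraries 163, 209, 262 and 272 CPM. Every LPS library lay far above every PBS library of its region. The change was 5.66 ± 0.90 (SE) in SI and 6.01 ± 0.91 in colon on the log2 scale, with adjusted p = 0.00194 and 0.0022 (edgeR quasi-likelihood, Benjamini-Hochberg over all genes tested).

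Adamts1 (chromosome 16, 85793827 to 85803113, minus strand), which cleaves versican and aggrecan, rose in SI. Its 4 PBS libraries held 33.4, 64.5, 66.8 and 79.7 CPM and its 4 LPS libraries 361, 416, 456 and 687 CPM, a change of 2.98 ± 0.43 (SE) on the log2 scale (edgeR, Benjamini-Hochberg adjusted p = 0.000747). In colon the level with PBS was 48.3, 164, 237 and 275 CPM and with LPS 319, 347, 384 and 496 CPM. These groups did not overlap either, but the change of 1.09 ± 0.40 did not pass the test over all genes (edgeR, Benjamini-Hochberg adjusted p = 0.47). The change in colon was smaller than in SI by 1.88 ± 0.57 on the log2 scale, and that difference did not pass the test (edgeR, unadjusted p = 0.00431, and a Benjamini-Hochberg adjusted p that rounds to 1).

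**Figure D1:**
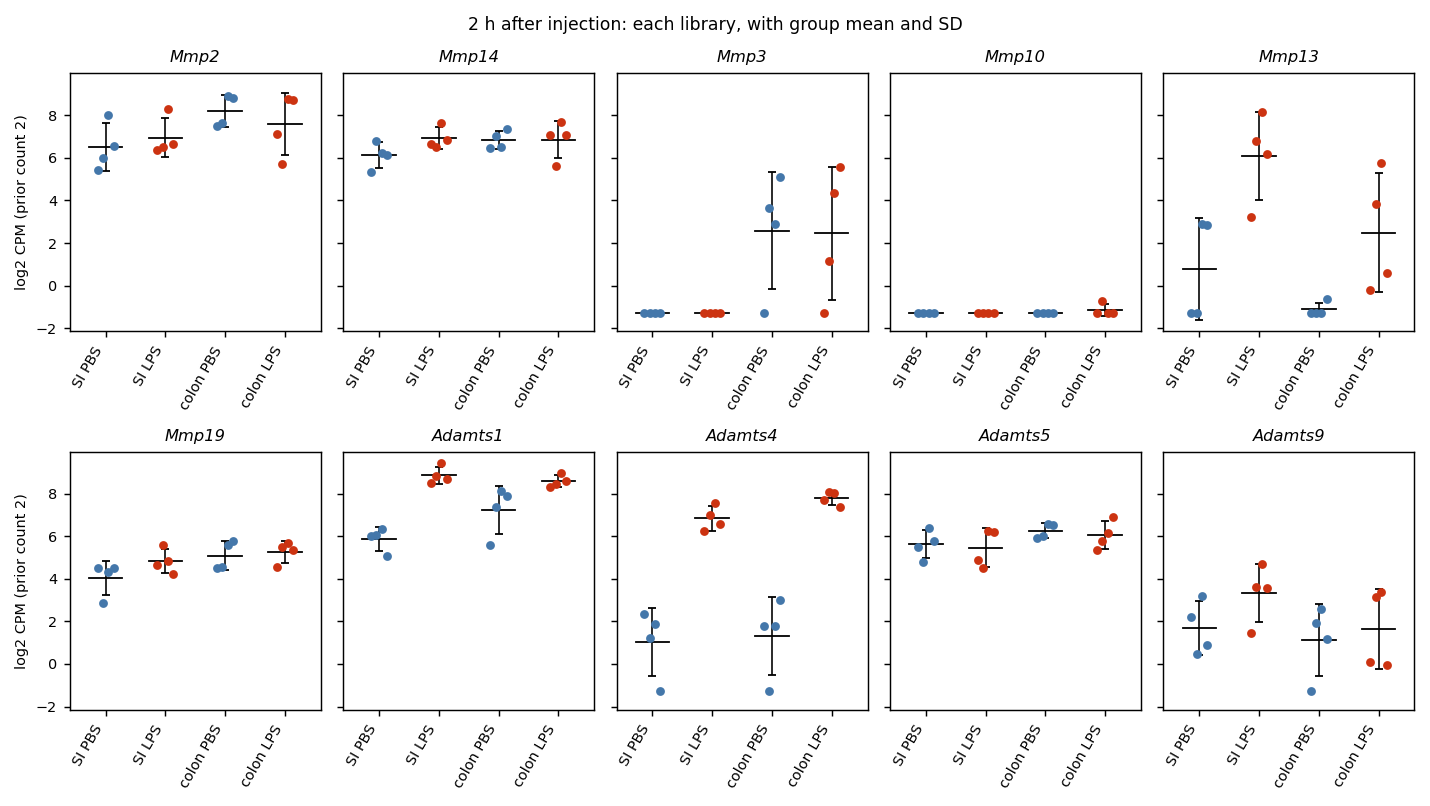
Level of each of the 10 proteases 2 h after injection, as log2 CPM with a prior count of 2, 1 point per library (n = 4 per group), bars for the group mean and SD. Adamts4 after LPS lies above PBS in both regions, from 75.6 to 191 CPM in SI and from 163 to 272 CPM in colon, and Mmp10 lies at the bottom of the scale throughout.

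Mmp13 is the collagenase of this set, and Mmp3 and Mmp10 are stromelysins, which cut proteoglycans and activate other MMPs. The 3 genes are neighbours on chromosome 9, and the 100 bases before each start (RefSeq, GRCm38.p6, plus strand) are shown because each holds a match to the AP-1 motif TGANTCA, in capitals, searched on both strands.
Mmp13, chr9:7272414-7272513: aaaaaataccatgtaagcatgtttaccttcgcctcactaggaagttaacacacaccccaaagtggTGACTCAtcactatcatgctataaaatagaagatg
Mmp3, chr9:7445722-7445821: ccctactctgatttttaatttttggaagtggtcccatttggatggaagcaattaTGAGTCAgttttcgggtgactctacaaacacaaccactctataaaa
Mmp10, chr9:7502242-7502341: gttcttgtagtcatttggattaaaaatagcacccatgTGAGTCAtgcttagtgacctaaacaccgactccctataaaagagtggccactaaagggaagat
The match begins 35 bases before the start of Mmp13, 46 before that of Mmp3 and 63 before that of Mmp10. Windows of 300 bases were found for 6 of 10 members, and those of Mmp14, Adamts1 and Adamts9 held no such match. Of all 32851 promoter windows, 7.81% hold one.

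Mmp13 was higher in every LPS library than in any PBS library of its region at 2 h, but with a wide spread. In SI the PBS libraries held 0, 0, 6.83 and 7.03 CPM and the LPS libraries 8.87, 72.7, 111 and 284 CPM. In colon, 3 of the 4 PBS libraries held no count and the fourth held 1, while the LPS libraries held 0.446, 1.11, 13.8 and 53.8 CPM, the lowest from 2 counts and the next from 4. The groups did not overlap in either region, and neither difference passed the test (edgeR, Benjamini-Hochberg adjusted p = 0.205 in SI, where the log2 change was 5.02 ± 1.47, and 0.151 in colon). DESeq2 called both, with Benjamini-Hochberg adjusted p = 0.0197 in SI and 0.000853 in colon, and edgeR called the SI change with the replicate block (5.25 ± 1.08, adjusted p = 0.0289). At 2 h Mmp13 entered the test through LPS libraries, the group where it is high, so these p-values are a description. Of its neighbours, Mmp3 held no count in any of the 8 SI libraries, and Mmp10 held 1 count in all 16 libraries together and did not pass the filter on low counts.

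The remaining members showed overlapping groups at 2 h. Mmp2, a gelatinase that cleaves basement-membrane collagen, had SI means of 147 ± 114 CPM after LPS and 115 ± 100 CPM after PBS, and 262 ± 195 and 324 ± 157 CPM in colon in the same order (SD, n = 4 each). Mmp14, the membrane-bound enzyme that activates Mmp2, averaged 127 ± 51.2 and 74.2 ± 29.4 CPM in SI and 130 ± 63.2 and 118 ± 36.6 CPM in colon. Adamts5, the other main aggrecanase, gave 50.1 ± 28.6 and 52.3 ± 23.2 CPM in SI. None of these, nor Mmp19 or Adamts9, passed the test in either region.

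Of the 9 members tested at 2 h, 2 were called in SI, both higher, and 1 in colon, higher. Over all 13107 genes the test called 1.1% in SI (1.08% higher) and 0.778% in colon (0.74% higher). The median log2 change of the 9 members was 0.77 in SI, where Mmp3 entered at 0, and 0.39 in colon, against -0.02 and -0.0022 over all genes. For the difference in response between the regions 0 members and 0% of genes were called by edgeR, with 1 member at an unadjusted p under 0.05 (Adamts1) and 0 members by DESeq2. Between the regions after PBS edgeR called 0 members and 0.221% of genes, 5 members had an unadjusted p under 0.05 and DESeq2 called 2. None of the marker lists of fibroblasts, glia, neutrophils or macrophages held a called gene at 2 h. Of 5 neutrophil markers only 2 were tested. In SI their sum over the 5 was 0 to 2.21 CPM after PBS (median 0) and 0 to 158 CPM after LPS (median 4.49). Summed fibroblast markers were 1173 to 5426 CPM after LPS and 1444 to 5419 CPM after PBS in SI, and 5136 to 11886 and 4799 to 12411 CPM in colon.

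At 24 h Adamts4 and Adamts1 were called in no LPS comparison. With PBS, Adamts4 averaged 17.3 ± 27.4 CPM in WT SI (n = 6) and with LPS 46.2 ± 57.2 CPM (n = 4), and in WT colon 18.1 ± 8.88 (n = 4) and 43.9 ± 43.4 CPM (n = 5). In KO SI it averaged 22.7 ± 27.2 and 24.5 ± 19.1 CPM, and in KO colon 11.7 ± 13.1 and 44.1 ± 31.2 CPM. The groups overlapped in all 4 comparisons and none passed the test. Adamts1 averaged 83.2 to 149 CPM over the 8 groups, with overlap throughout. Times were sequenced as separate experiments and were not tested against each other.

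Mmp14 (chromosome 14, 54431612 to 54445364) rose with LPS in WT SI at 24 h. The 6 PBS libraries ran from 95.7 CPM to 146 CPM with a median of 117 CPM, and the 4 LPS libraries held 193, 204, 220.5 and 362 CPM. The groups did not overlap, and the change was 1.04 ± 0.28 (SE) on the log2 scale (edgeR, Benjamini-Hochberg adjusted p = 0.0176). Among mice numbered 11 and above it was 1.30 ± 0.21 (adjusted p = 0.000563, the same test). Summed fibroblast markers in the same libraries were 1967 to 13524 CPM with PBS and 696 to 10147 CPM with LPS, with 3 of 8 lower (Col1a1, Col1a2 and Col3a1) and none higher. Of 5 neutrophil markers 4 were higher, S100a8 at 281 against 0.259 CPM, and they entered the test through LPS libraries, so their calls are a description. Of 8 glial markers Gfap was higher, and of 6 macrophage markers Cx3cr1 was lower. The part of these cell types in the WT SI results was not tested. Without the LPS library of mouse 13 the change of Mmp14 was 0.85 ± 0.28 and no longer passed (edgeR, Benjamini-Hochberg adjusted p = 0.0648), and without that of mouse 3 it was 1.12 ± 0.30 (adjusted p = 0.0271).

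In the other groups at 24 h Mmp14 was not called. KO colon held 139, 159, 199, 211 and 226 CPM with PBS and 256, 290, 307 and 418 CPM with LPS, without overlap (0.77 ± 0.29 on the log2 scale, edgeR, Benjamini-Hochberg adjusted p = 0.256). In KO SI the means were 183 ± 64.8 CPM with LPS (n = 5) and 140 ± 15.5 CPM with PBS (n = 4). WT colon gave 247 ± 114 CPM (n = 5) and 246 ± 45.3 CPM (n = 4). The response of Mmp14 in WT colon was lower than in WT SI by 1.04 ± 0.40 on the log2 scale, which did not pass (edgeR, Benjamini-Hochberg adjusted p = 0.523).

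Mmp19 (chromosome 10, 128790910 to 128800824), which acts on basement-membrane proteins and other matrix components, fell with LPS in WT colon. With PBS the 4 libraries held 55.7, 67.6, 96.4 and 109 CPM and with LPS the 5 libraries held 3.07, 6.75, 20.7, 22.6 and 27.7 CPM. The groups did not overlap. The change was -2.35 ± 0.55 (SE) on the log2 scale (edgeR, Benjamini-Hochberg adjusted p = 0.00811). Among mice numbered 11 and above it was -1.90 ± 0.35 (adjusted p = 0.00153), and without mouse 3, whose Gpr37 counts were low, -2.08 ± 0.55 (adjusted p = 0.02, the same test). With the 2 groups fitted alone the call was lost (-2.31 ± 0.56, adjusted p = 0.0529). Over both genotypes and regions, the median of Mmp19 after LPS was 8.14 CPM in mice numbered 10 and below and 38.0 CPM in the others. After PBS these medians were 23.2 and 49.9 CPM.

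In SI Mmp19 was not called: WT means were 17.8 ± 13.1 CPM after LPS against 35.9 ± 12.5 CPM after PBS (-1.01 ± 0.54 on the log2 scale, edgeR, Benjamini-Hochberg adjusted p = 0.274), and KO means 26.9 ± 18.0 and 33.6 ± 7.40 CPM (-0.31 ± 0.54, adjusted p = 0.916). Mmp19 was not called in KO colon either: its libraries held 19.2, 59.7, 71.1, 72.7 and 72.8 CPM with PBS and 34.0, 46.0, 81.9 and 88.4 CPM with LPS (0.09 ± 0.54 on the log2 scale). After LPS, all 4 KO colon libraries lay above all 5 WT colon libraries, and the genotypes differed in Mmp19 by 1.95 ± 0.55, just short of the threshold (edgeR, Benjamini-Hochberg adjusted p = 0.0851). Among mice numbered 11 and above that difference was 1.71 ± 0.35 and passed (adjusted p = 0.0159). The test of the difference in response between genotypes gave 2.43 ± 0.76 on the log2 scale and did not pass (edgeR, Benjamini-Hochberg adjusted p = 0.176), so the responses are not shown to differ.

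Other measurements moved with Mmp19. Summed fibroblast markers were 16580 to 25993 CPM with PBS and 760 to 9606 CPM with LPS in WT colon, where 4 of 8 of these markers fell (Col1a1, Col1a2, Col3a1 and Pi16) and none rose. In KO colon the sums were 3058 to 19665 and 1736 to 17546 CPM, with 0 of 8 called. Exons of Mmp19 overlap Tmem198b and Gm47093 on the other strand over 28.3% of their bases, and Tmem198b averaged 41.2 ± 4.99 CPM with PBS and 21.4 ± 14.2 CPM with LPS in WT colon (adjusted p = 0.118 by edgeR with Benjamini-Hochberg adjustment). The kit does not mark strand. The part of the fibroblast markers and of the overlapping genes in the Mmp19 result was not tested.

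**Figure D2:**
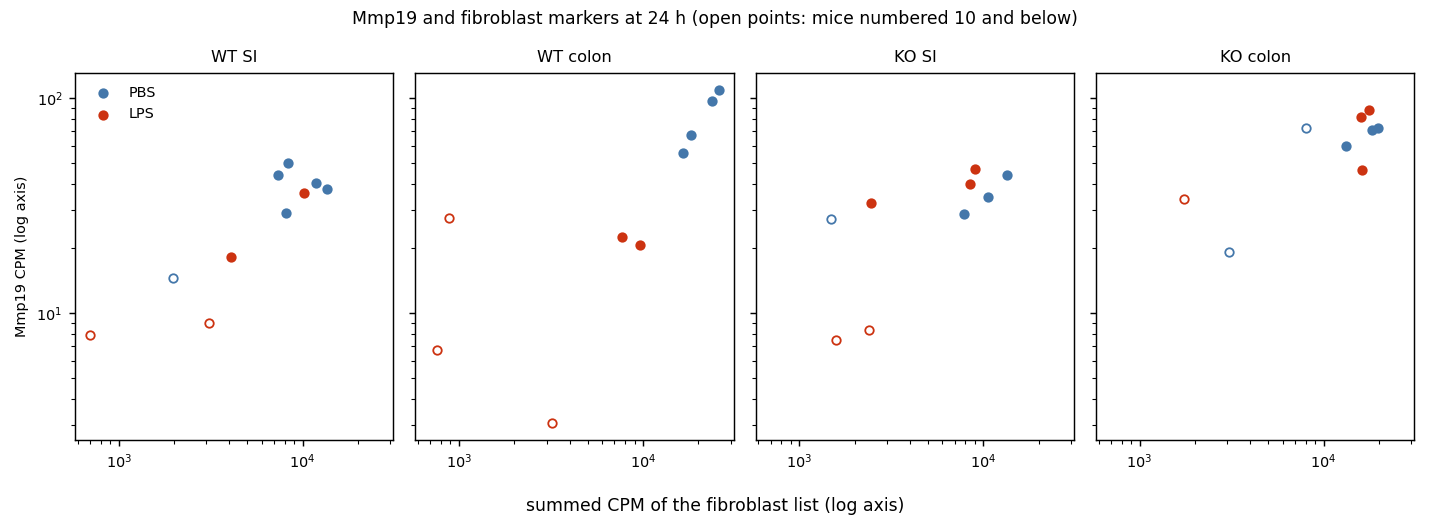
Mmp19 against the summed level of the 8 fibroblast markers in each 24 h library, both in CPM on log axes, by genotype and region (blue PBS, red LPS, open points mice numbered 10 and below). In WT colon the LPS libraries lie at 27.7 CPM of Mmp19 or below and the PBS libraries at 55.7 CPM or above, and the 2 treatments are also apart on the fibroblast axis.

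Mmp3 had the highest mean after LPS of any member in 3 of the 4 comparisons at 24 h per kilobase of exon, but its libraries differed widely. In WT SI the PBS libraries ran from 0.24 CPM to 29.7 CPM with a median of 10.8 CPM, and the LPS libraries held 1.28, 46.7, 152 and 388 CPM. In KO colon the PBS libraries held 0.121, 13.9, 18.3, 41.8 and 42.4 CPM, and the LPS libraries 0, 53.0, 241 and 650 CPM. The groups overlapped and Mmp3 was not called in WT SI (3.53 ± 1.42 on the log2 scale, edgeR, Benjamini-Hochberg adjusted p = 0.133) or KO colon (3.35 ± 1.52, adjusted p = 0.353). Means in WT colon were 178 ± 209 CPM with LPS and 59.7 ± 20.7 CPM with PBS, and in KO SI 101 ± 133 and 11.7 ± 17.2 CPM.

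After LPS the median of Mmp3 differed with the mouse number, while the libraries on each side of the division still spread widely. Among mice numbered 11 and above the 10 LPS libraries, over both genotypes and regions, ran from 7.43 CPM to 650 CPM with a median of 208 CPM, and the 15 PBS libraries from 4.64 CPM to 80.8 CPM with a median of 18.3 CPM. The 8 LPS libraries of lower-numbered mice had a median of 6.57 CPM, with 524 CPM at most in the colon of mouse 3. Fitted on mice numbered 11 and above, Mmp3 changed by 4.22 ± 0.92 in WT SI (edgeR, Benjamini-Hochberg adjusted p = 0.00576), 1.38 ± 0.96 in WT colon (0.398), 3.47 ± 1.03 in KO SI (0.132) and 3.73 ± 1.04 in KO colon (0.123). Of the 50-base stretches of Mmp3, 8.39% are shared with Mmp10 or Gm15244, and how reads in them were counted is not given in the sources used here.

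Adamts9, which cleaves versican, was higher in WT SI after LPS without overlap: the PBS libraries ran from 0.401 CPM to 7.77 CPM with a median of 4.06 CPM, and the LPS libraries held 10.6, 12.0, 20.5 and 32.8 CPM. The change of 2.30 ± 0.85 on the log2 scale did not pass (edgeR, Benjamini-Hochberg adjusted p = 0.0965). It was called by DESeq2 (adjusted p = 0.0365), with the 2 groups fitted alone (0.0488) and with the mouse number division as a covariate (3.23 ± 0.86, adjusted p = 0.0166), and not among mice numbered 11 and above (1.84 ± 0.91, adjusted p = 0.225, edgeR). In WT colon Adamts9 held 0.386, 0.597, 4.36 and 4.77 CPM with PBS and 2.32, 2.59, 5.00, 13.1 and 36.4 CPM with LPS, the highest 2 from mice 16 and 13. Its change there was 2.23 ± 0.95 and not called (edgeR, Benjamini-Hochberg adjusted p = 0.134), while among mice numbered 11 and above it was 3.32 ± 0.98 and passed (adjusted p = 0.0349). In KO mice the changes of Adamts9 were 1.73 ± 0.93 in SI and 1.93 ± 0.91 in colon, not called. Exons of Adamts9 overlap A730049H05Rik and Gm15737 on the other strand over 12% of their bases, and for which gene reads there were counted is not given in the sources used here.

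Adamts5 in WT colon held 44.8, 46.5, 46.8 and 67.7 CPM with PBS and 42.2, 95.0, 126, 152 and 372 CPM with LPS, so that 4 of 5 LPS libraries lay above every PBS library. The change of 1.61 ± 0.53 on the log2 scale just missed the threshold (edgeR, Benjamini-Hochberg adjusted p = 0.0528). Adamts5 was called there by DESeq2 (adjusted p = 0.0133), with RLE scaling (0.0458, edgeR), among mice numbered 11 and above (1.46 ± 0.43, adjusted p = 0.0345, edgeR) and without the LPS library of mouse 8 (1.86 ± 0.52, adjusted p = 0.0275, edgeR). In WT SI the LPS libraries held 24.1, 33.01, 102 and 189 CPM of Adamts5, the lower 2 from mice 3 and 8, around a PBS mean of 57.6 ± 20.0 CPM (n = 6). The change of Adamts5 in WT SI was 0.60 ± 0.48 over all mice (adjusted p = 0.518) and 1.44 ± 0.41 among mice numbered 11 and above, where it passed (edgeR, Benjamini-Hochberg adjusted p = 0.0276).

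Mmp2 varied more between LPS libraries than between treatments. In KO SI it held 11.4, 24.4, 188, 291 and 342 CPM with LPS and 217, 232, 235 and 304 CPM with PBS, and the 2 lowest were mice 10 and 6. In WT colon the LPS libraries held 40.7, 48.6, 386, 409 and 915 CPM, around PBS libraries of 354, 444, 530 and 565 CPM. Both tails of that range came from mice numbered 10 and below. Mmp13 was low at 24 h: in the 18 LPS libraries it exceeded 3 counts in 4, all of mice numbered 10 and below (mice 2, 3, 6 and 8). Mmp10 reached at most 31 counts (WT LPS SI, mouse 13) and did not pass the filter on low counts.

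**Figure D3:**
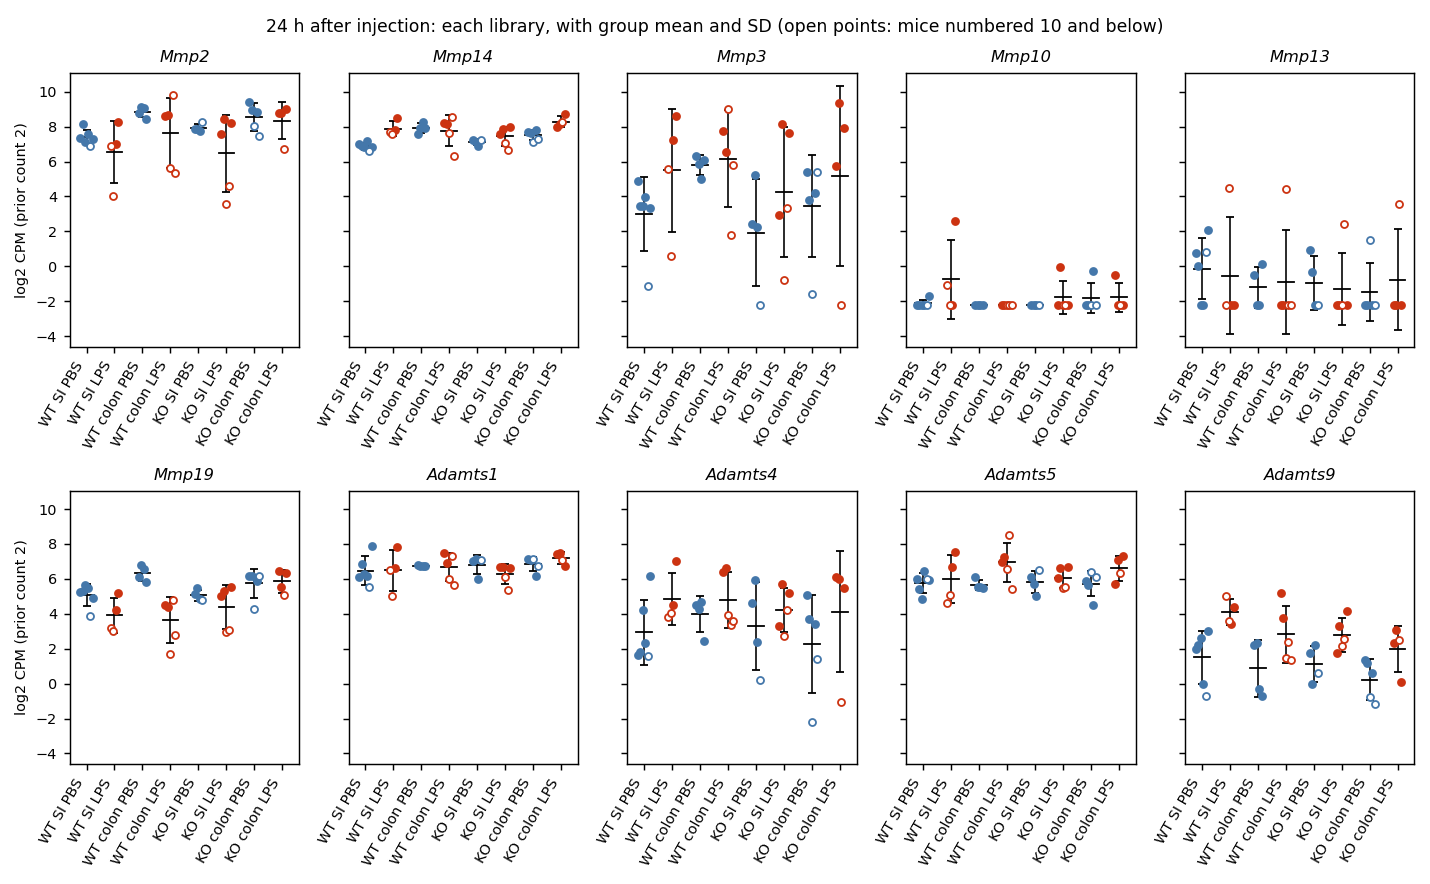
Level of each protease 24 h after injection, as log2 CPM with a prior count of 2, by genotype, region and treatment, 1 point per library, bars for the group mean and SD. Open points are mice numbered 10 and below, which after LPS include the lowest Mmp2 and Mmp3 values and all Mmp13 values above 3 counts.

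Of the 9 members tested at 24 h, edgeR called 1 higher in WT SI (Mmp14) and 1 lower in WT colon (Mmp19). Over all 14903 genes 7.17% were called in WT SI (4.18% higher) and 7.96% in WT colon (4% lower), so 1 of 9 is near the background. In KO SI and KO colon 0 members were called, against 0.718% of genes in each, with 0 and 3 members at an unadjusted p under 0.05 and 0 by DESeq2. The members' median log2 change was 1.04 in WT SI, 1.28 in WT colon, 0.24 in KO SI and 0.91 in KO colon, against -0.13, -0.03, -0.05 and -0.07 over all genes.

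**Figure D4:**
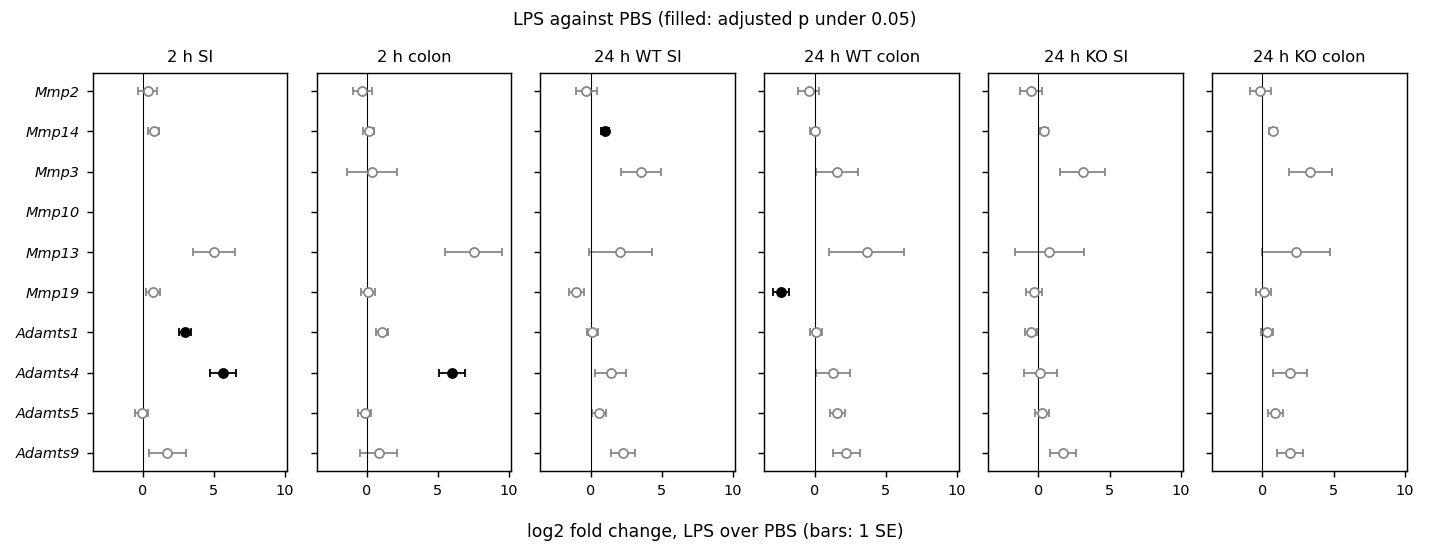
Log2 fold change of LPS over PBS for each tested protease in the 6 LPS comparisons, with bars of 1 SE and filled points for an adjusted p under 0.05. Adamts4 is filled in both regions at 2 h, Adamts1 in SI at 2 h, Mmp14 in WT SI and Mmp19 in WT colon at 24 h. Mmp10 and Mmp3 in SI at 2 h have no point for want of counts.

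The genotypes themselves were compared within treatment, and edgeR called 0 members in any of the 4 comparisons. After PBS 0% of genes were called in SI and 0% in colon, with 0 members at an unadjusted p under 0.05 in each and 0 by DESeq2. After LPS 0.0134% of genes were called in SI and 0.429% in colon, where Mmp19 had the 1 unadjusted p under 0.05 and was the 1 member DESeq2 called. For the difference in response between genotypes 0% of genes were called in SI and 0% in colon, with 0 and 1 members (Mmp19) at an unadjusted p under 0.05 and 0 by DESeq2. For the difference in response between regions in WT, 0% of genes and 0 members were called, with 1 member (Mmp14) at an unadjusted p under 0.05 and 0 by DESeq2. Between colon and SI of WT PBS mice 0.141% of genes and 0 members were called. DESeq2 called 1 member there and 2 had an unadjusted p under 0.05.

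Timp1, a secreted inhibitor of most MMPs, rose with LPS in all 4 comparisons at 24 h, to means of 383 CPM from 15.2 CPM in WT SI, 336 from 31.8 in WT colon, 311 from 31.4 in KO SI and 213 from 30.4 in KO colon. The Timp1 changes were 4.65 ± 0.54, 3.40 ± 0.59, 3.31 ± 0.59 and 2.81 ± 0.54 on the log2 scale, with adjusted p from 7.37e-07 to 0.00732 (edgeR, Benjamini-Hochberg). The Timp1 groups overlapped in KO colon alone of the 4. Neutrophil markers were called higher beside Timp1 in each comparison, 4 of 5 in WT SI and 1 of 5 in each of the others, and their part was not tested. The called neutrophil markers entered the test through LPS libraries, where they are high, so their calls are a description. Timp2, which also helps Mmp14 to activate Mmp2, fell in WT colon by 1.38 ± 0.26, from 1072 ± 121 CPM to 413 ± 120 CPM. It was also the 1 gene of these lists called between genotypes: after LPS in colon it held 473, 825, 1152 and 1380 CPM in KO and 279, 315, 400.2, 525 and 545 CPM in WT, with overlap (1.21 ± 0.26 on the log2 scale, edgeR, Benjamini-Hochberg adjusted p = 0.0376). Among mice numbered 11 and above the fall of Timp2 was by 0.98 ± 0.28 (adjusted p = 0.0323) and the genotype difference of 1.04 ± 0.30 did not pass (adjusted p = 0.0663, edgeR). The fibroblast marker sums given beside Mmp19 moved with Timp2 too, and the KO colon library of mouse 2 was the lowest after LPS in both. Reck, a membrane-anchored inhibitor of several MMPs, fell in WT SI by 3.09 ± 0.66, in the libraries whose fibroblast markers are given beside Mmp14. Timp1 and Reck kept their calls among mice numbered 11 and above. Of 6 inhibitors tested, 1 rose and 1 fell in each WT region and 1 rose in each KO region, and at 2 h edgeR called 0 of 5 in either region, with 1 at an unadjusted p under 0.05 in each.

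Of the other MMPs tested, edgeR called 0 of 6 at 2 h in either region, with 1 at an unadjusted p under 0.05 in SI and 0 in colon. At 24 h 1 of 10 rose in WT SI (Mmp8, a neutrophil collagenase, 22.5 from 0.185 CPM) and 2 of 10 fell in WT colon (Mmp23, 4.72 from 123 CPM, and Mmp16, 0.768 from 17.0 CPM). Beside Mmp8, 4 of 5 neutrophil markers rose in WT SI, where their sum was 0 to 3.61 CPM with PBS and 7.41 to 822 CPM with LPS, and the part of neutrophils in that result was not tested. Mmp8 and these neutrophil markers entered the test through LPS libraries, where they are high, so their calls are a description.

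Of 12 other ADAMTS genes tested at 24 h, Adamts14, a procollagen-processing enzyme, was called higher in WT SI, where its LPS libraries held 0, 0.185, 6.29 and 60.3 CPM (16.7 ± 29.2 CPM, SD) and its PBS libraries 1.36 CPM at most. The highest 2 were mice 8 and 3, and among mice numbered 11 and above the change of Adamts14 had the other sign and was not called (-1.04 ± 2.17, edgeR, Benjamini-Hochberg adjusted p = 0.819). Adamts19 fell in WT colon (0.0422 from 8.46 CPM). Of 9 substrates tested, versican (Vcan) rose in WT SI (49.9 from 11.5 CPM), and fibronectin (Fn1, 59.9 from 374 CPM) and biglycan (Bgn, 1065 from 3744 CPM) fell in WT colon, where the fibroblast markers were lower as well. The part of fibroblasts in the falls of Timp2, Fn1 and Bgn was not tested. Among mice numbered 11 and above Vcan, Fn1 and Mmp23 kept their calls, while Mmp8 (adjusted p = 0.0973), Mmp16 (0.0706), Adamts19 (0.059) and Bgn (0.0754, all by edgeR with Benjamini-Hochberg adjustment) no longer passed. In KO mice at 24 h edgeR called 0 of 10 other MMPs, 0 of 12 other ADAMTS genes, 0 of 6 plasminogen genes and 0 of 9 substrates in either region. At an unadjusted p under 0.05 these lists held 2, 0, 1 and 2 genes in KO SI and 3, 2, 0 and 1 in KO colon.

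Across untreated sites, Mmp2 had the highest level per kilobase of exon of the 10 members at every site, at 58.0 ± 19.8 CPM per kb in SI MP, 119 ± 48.9 in colon MP, 56.4 ± 28.7 in SI SMP and 96.9 ± 28.7 in colon SMP (SD). In the MP, Adamts1 and Mmp14 came next on that scale, at 21.8 ± 12.9 and 19.7 ± 6.14 CPM per kb in SI and 37.6 ± 8.70 and 31.3 ± 8.42 in colon, within their spread of each other. In SI SMP the second place was held by Mmp13 at 31.3 ± 15.5 CPM per kb, followed by Mmp14 at 16.0 ± 5.07 and Mmp10 at 12.0 ± 9.67. Adamts9 was among the 2 lowest at each site.

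Mmp10 and Mmp13 were higher in the submucosal than in the myenteric plexus of SI. There, Mmp10 held no count in any of the 6 MP libraries and ran from 0.719 CPM to 45.9 CPM in SMP with a median of 14.7 CPM, at least 34.5-fold higher against a floor of 3 counts per library (edgeR, Benjamini-Hochberg adjusted p = 9.58e-05). Mmp13 ran from 0 to 4.23 CPM in MP (median 1.14 CPM) and from 24.6 CPM to 137 CPM in SMP (median 89.3 CPM), a change of 5.88 ± 1.22 on the log2 scale (adjusted p = 0.000578, the same test). Neither gene overlapped between the plexuses of SI. Mmp10 entered the test through the SI SMP libraries and Mmp13 through SMP libraries, where they are high, so their p-values here and in colon are a description.

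In colon the same comparison gave 0, 0, 3.42, 3.62 and 5.16 CPM of Mmp10 in SMP and 0, 0, 0, 0 and 0.175 CPM in MP (edgeR, Benjamini-Hochberg adjusted p = 0.0143). With the replicate block the Mmp10 call was lost (adjusted p = 0.059, edgeR). Mmp13 in colon SMP held 0, 28.1, 29.1, 36.8 and 39.5 CPM against 0, 0, 0, 4.35 and 10.1 CPM in MP, and narrowly missed the threshold (adjusted p = 0.0545), which it passed with the block (0.0447, edgeR). Both genes overlapped between the plexuses of colon through SMP libraries with no count. The stromelysin Mmp3 passed in neither region: it averaged 13.8 ± 15.0 CPM in SMP and 1.5 ± 2.23 CPM in MP of SI (edgeR, Benjamini-Hochberg adjusted p = 0.0524), and 3.53 ± 3.06 and 29.6 ± 37.3 CPM in colon (0.114).

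Adamts1 and Adamts5 were lower in the submucosal plexus of both regions. Adamts1 in SI ran from 67.2 CPM to 248 CPM in MP (median 86.0 CPM) and from 10.1 CPM to 53.7 CPM in SMP (median 21.8 CPM), and fell by 1.99 ± 0.39 on the log2 scale (edgeR, Benjamini-Hochberg adjusted p = 0.000324). Adamts5 averaged 61.6 ± 24.1 CPM in SI MP and 11.1 ± 8.08 CPM in SI SMP (n = 6 each), and fell by 2.46 ± 0.56 (adjusted p = 0.0012). In colon, Adamts1 fell by 1.44 ± 0.42 (adjusted p = 0.0174) from 199 ± 46.1 to 73.6 ± 26.7 CPM, and Adamts5 by 1.93 ± 0.59 (adjusted p = 0.0237) from 70.7 ± 17.9 to 18.3 ± 18.6 CPM (n = 5 each). No library of SMP reached the lowest MP library for either gene in either region, and how many of all genes do so was not counted. The colon call of Adamts5 was lost with the groups of the comparison alone (adjusted p = 0.0708) and on leaving out any of 4 of the 10 libraries (0.0538 to 0.0614), and that of Adamts1 on leaving out 1 SMP library (0.0501, all by edgeR with Benjamini-Hochberg adjustment). The other aggrecanase, Adamts4, averaged 6.18 ± 5.00 CPM in SMP and 3.04 ± 3.93 CPM in MP of SI and 18.6 ± 5.54 and 7.19 ± 6.70 CPM in colon, with overlap and no call, and Adamts9 was not called either.

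Of 10 members tested, 4 were called between the plexuses of SI, 2 higher and 2 lower in SMP, where edgeR called 43.5% of all 14090 genes (22.3% higher and 21.2% lower). In colon 3 members were called, 1 higher and 2 lower, against 21.8% of genes (10.7% and 11.1%). Read against those shares, the counts are near the background. The median log2 change of the members was -0.08 in SI and -0.17 in colon, against 0.06 and -0.01 over all genes. For the difference between these 2 contrasts 0 members and 1.19% of genes were called by edgeR, with 1 member (Mmp3) at an unadjusted p under 0.05 and 1 called by DESeq2.

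Cell-type markers moved with the plexus. Summed glial markers were 9142 to 14211 CPM in SI MP and 545 to 2069 CPM in SI SMP, with 7 of 8 lower, and macrophage markers were 156 to 2702 and 2514 to 15791 CPM, with all 6 higher. In colon macrophage markers were also all higher, as were 5 of 5 lymphocyte markers, and 4 of 8 glial markers were lower. Smooth muscle markers summed to 6508 to 20541 CPM in colon MP and 718 to 2747 CPM in colon SMP, with 5 of 6 lower, and 5 of 5 mesothelial, 4 of 5 neuronal and 3 of 3 markers of interstitial cells of Cajal were lower. Lymphocyte markers rose from at most 5.39 CPM in SI MP to 202 to 1310 CPM in SI SMP. Epithelial markers were 4.90 to 149 CPM in SI MP and 940 to 3995 CPM in SI SMP, with 5 of 5 higher. Smooth muscle (5 of 6), mesothelial (5 of 5) and neuronal markers (5 of 5) were lower in SI SMP. The part of these cell types in the plexus differences of the proteases was not tested. The lymphocyte and mesothelial markers entered the test through the plexus where they are high, so their calls are a description.

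Genes of the other lists were called in both directions between the plexuses of SI, where 43.5% of all genes were called. Of 11 other MMPs tested 3 were higher and 3 lower in SMP, of 11 other ADAMTS genes 1 and 3, of 5 inhibitors 0 and 5, of 6 plasminogen genes 2 and 2, and of 9 substrates 1 and 5. In SI SMP, Mmp7, the matrilysin of epithelia, stood at 160 CPM against 0.557 CPM in MP and Mmp9, a gelatinase of leukocytes, at 344 against 4.15 CPM. Mmp25, a leukocyte MMP, was also higher (12.7 from 1.11 CPM), and Mmp17, a membrane-bound MMP, was lower (17.6 from 214 CPM). Among inhibitors Timp3 fell to 271 CPM from 1978 CPM and Timp4 to 1.29 from 34.2 CPM, and Timp2 and Reck were lower as well. The protease inhibitor Serpine2 fell to 105 CPM from 947 CPM and the plasminogen activator Plat to 54.0 from 369 CPM, whereas Plaur (27.2 from 4.64 CPM) and Plgrkt, a plasminogen receptor (68.0 from 37.4 CPM), were higher. Adamts19 was higher at 3.87 CPM against 0.434 CPM, and Adamts7 (1.44 from 8.43 CPM), Adamts8 (1.93 from 16.7 CPM) and Adamts20 (0.673 from 8.76 CPM) were lower. Brevican (Bcan), a brain-type proteoglycan that aggrecanases cut, gave 0.022 CPM in SI SMP and 19.9 CPM in SI MP, and decorin (Dcn), a small collagen-binding proteoglycan, was the substrate that was higher (1250 against 585 CPM), named here after its values were seen. All these differences passed the test (edgeR, Benjamini-Hochberg), but Mmp7, Mmp25 and Bcan entered it through the plexus where they are high, so that their calls are a description.

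**Figure D5:**
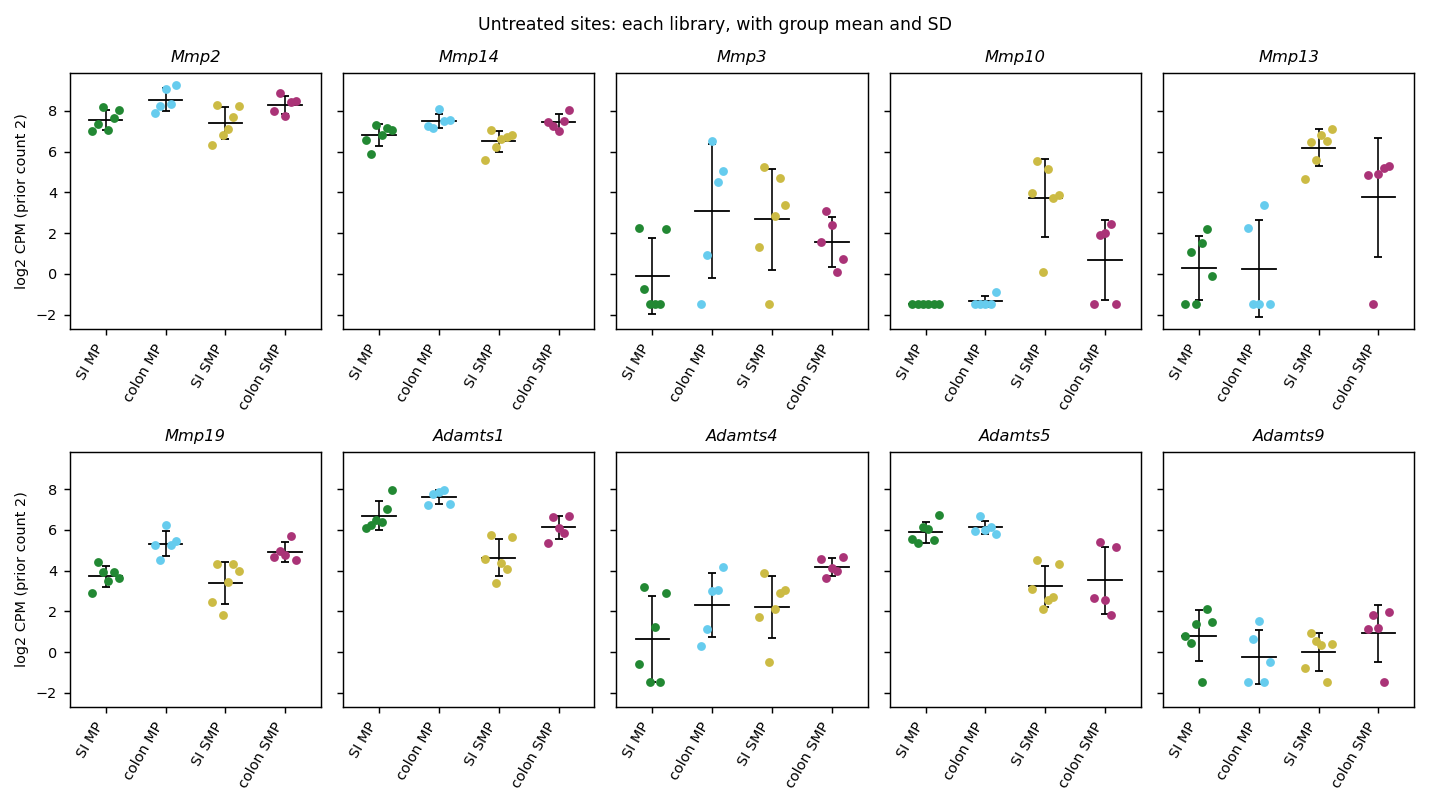
Level of each protease at the 4 untreated sites, as log2 CPM with a prior count of 2, 1 point per library (n = 6 in SI, 5 in colon), bars for the group mean and SD. Mmp10 and Mmp13 are higher and Adamts1 and Adamts5 lower in the submucosal plexus (SMP) of SI than in the myenteric plexus (MP).

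Colon was compared with SI within each plexus. In MP, Mmp19 held 22.4, 37.4, 37.5, 42.9 and 74.7 CPM in colon and ran from 7.09 CPM to 20.8 CPM in SI with a median of 13.3 CPM, without overlap (1.68 ± 0.41 on the log2 scale, edgeR, Benjamini-Hochberg adjusted p = 0.0292). It was the 1 member of 10 called there, against 3.19% of genes (1.66% higher). The Mmp19 call was lost when any of 6 of the 11 libraries was left out in turn (1 of colon and 5 of SI), with an adjusted p of 0.0817 at most. Fibroblast markers were also higher in colon MP, at 4511 to 17413 CPM against 2192 to 4222 CPM in SI MP with 4 of 8 called. Smooth muscle markers were higher too (6508 to 20541 against 1124 to 7756 CPM, 2 of 6 called), and 4 of 5 neuronal markers were lower. Markers of interstitial cells of Cajal summed to 291 to 1002.5 CPM in colon MP and 94.9 to 199 CPM in SI MP. The part of these cell types was not tested.

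In SMP, 2 of 10 members were called higher in colon, against 5.18% of genes (3.82% higher). Mmp14 averaged 180 ± 49.8 CPM in colon and 95.3 ± 30.2 CPM in SI (0.92 ± 0.27 on the log2 scale, edgeR, Benjamini-Hochberg adjusted p = 0.0459). Adamts1 averaged 73.6 ± 26.7 and 29.0 ± 18.1 CPM (1.34 ± 0.39, adjusted p = 0.0493). Fibroblast markers were 5145 to 10336 CPM in colon SMP and 1629 to 7440 CPM in SI SMP, with 2 of 8 higher, as were 2 of 4 endothelial and 1 of 8 glial markers, and their part was not tested. The Mmp14 and Adamts1 differences sit at the edge of the threshold, their groups overlap, and their calls were lost in most fits that left out 1 library.

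The genes whose log2 CPM ran most like that of Adamts4 (called in 2 of the 6 LPS comparisons), Adamts1 and Mmp19 (1 each) over the 37 libraries at 24 h were picked from the 14902 other genes tested, as a description. The libraries share treatment, region and mouse, so the values are not independent. For Adamts4 they included Plaur, the urokinase receptor (Pearson r 0.759), Gpx3 (0.747), Slc43a1 (0.740) and Lox, a collagen cross-linking enzyme (0.740). For Adamts1 they were Egr1 (0.742), Nr4a1 (0.742), Ccn1 (0.735), Clk1 (0.717) and Atf3 (0.711), and Egr1, Nr4a1 and Atf3 encode transcription factors of the immediate early response. For Mmp19 they were Htra3 (0.884), Slc9a3r2 (0.874), Lamb1, a laminin chain (0.872), Gsn (0.866) and Pkd2 (0.862).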

How the data were processed

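Cells labelled EGC were profiled by Smart-seq2, a full-length method with PCR and no molecular identifiers, in 75 libraries of 16 groups. The deposited values are raw counts per gene symbol, made by the authors with Trim Galore 0.4.4 and STAR 2.5.3 on GRCm38, per the submitters' processing notes. The counting program and its use of strand are not given in the sources used here. The members and gene lists were chosen with earlier results of these data known, as was the division of mice at number 10.

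Each of the 3 experiments was fitted by itself over all its genes with edgeR 4.0.16 in R 4.3.3 (TMM scaling, filterByExpr, quasi-likelihood test). P-values were adjusted by Benjamini-Hochberg over every gene tested, and calls made at an adjusted p under 0.05. DESeq2 1.42.0 was an alternative, as were RLE scaling, no filter, sex as a covariate, the compared groups alone, a replicate block, the mouse number division and leaving out each library. The SE is the log2 fold change divided by the root of the F statistic. CPM used TMM-scaled totals, and log2 CPM a prior count of 2. Sites and times were not tested across experiments. The named genes were the 10 members, every list gene called, and for likeness the 5 genes with the highest Pearson r to 3 members, those called in most LPS comparisons with ties settled by the smallest p, which left out Mmp14. The scripts were tested on simulated data. There the test recovered 0% of log2 changes of 1 and 18.2% of those of 2 in SI at 2 h. The same shares were 6% and 34% in WT SI at 24 h, and 15.2% and 60.6% between the plexuses of untreated SI. A change that was not called is therefore not shown to be absent. Of 50, 24 and 69 pairs of libraries within groups, 0 held identical values. Floors cover counting error only. Where groups are said not to overlap, this is a description, since the share of all genes without overlap was not counted. Gene positions are from GENCODE M21 and promoters from RefSeq. Some list genes and neighbours are not reported here.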

Additional observations from a re-analysis of the deposited data

Results flagged for a closer look

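Of 143 sets, each of 1 gene in 1 group of 4 to 6 libraries, tested for a library apart from the rest (Dixon's ratio), 18 had one. Chance alone flags about 1 in 20 where values are normally spread. That rate does not cover sets with all libraries but 1 at 0, as for Mmp13 at 24 h, which are flagged by construction. Each value below is the CPM of the library apart, and no explanation was tested.

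In untreated SMP, Mmp10 stood at 0.719 CPM in male 3 of SI, Mmp13 at 0 in male 3 of colon and Adamts9 at 0 in female 2 of colon, each below the other libraries of its group. At 2 h, Mmp2 stood high at 317 CPM in female 3 of SI after LPS, and Mmp19 low at 6.82 CPM in male 2 of SI after PBS.

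At 24 h, 10 of the flags fell on mice numbered 10 and below. Mmp13 was listed in 1 library of a group otherwise at 0 in 5 groups, with 21.7 CPM in WT LPS colon (mouse 3), 11.8 CPM in KO LPS colon (mouse 2), 22.2 CPM in WT LPS SI (mouse 8), 5.14 CPM in KO LPS SI (mouse 6) and 2.67 CPM in KO PBS colon (mouse 1). Mouse 2 also had the lowest Mmp2 (107 CPM) and Adamts4 (0.268 CPM) of KO LPS colon. Mouse 1 had the lowest Mmp3 (0.121 CPM) and Mmp19 (19.2 CPM) of KO PBS colon, and mouse 9 the lowest Mmp3 of WT PBS SI (0.24 CPM).

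Of mice numbered 11 and above, mouse 14 had the highest Adamts1 (112 CPM) and Adamts5 (67.7 CPM) of WT PBS colon, where the Adamts1 range is narrow, and mouse 20 the lowest Adamts1 of KO PBS SI (64.1 CPM).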

How the results depend on the processing

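Of 25 fold changes of members followed through 399 refits, 348 kept their side of the threshold, 38 lost it (29 on leaving out 1 library), 13 gained it and 0 changed sign. The Adamts4 calls in both regions and the Adamts1 call in SI at 2 h held in every refit. Of 3515 refits of every member in every comparison 209 changed sign, 0 of them of a called change.

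The number of members called moved as follows. Between colon and SI of untreated MP, DESeq2 called 2. In untreated SMP, colon against SI gave 0 with no filter, 1 with sex as a covariate, 0 with the groups alone and 1 with the replicate block. SMP against MP in colon gave 1 with the groups alone. DESeq2 called 1 for the plexus by region difference, 2 for LPS in colon at 2 h, 3 for LPS in SI at 2 h with Mmp13 added, and 2 for colon against SI after PBS at 2 h. LPS in WT SI gave 2 with DESeq2, 3 with the groups alone, 2 with the mouse number division as a covariate and 3 with mice numbered 11 and above (Mmp3, Mmp14 and Adamts5). LPS in WT colon gave 2 with RLE scaling, 2 with DESeq2, 0 with the groups alone, where Mmp19 had an adjusted p of 0.0529 by edgeR, and 3 with mice numbered 11 and above (Mmp19, Adamts5 and Adamts9). KO against WT after LPS in colon gave 1 with DESeq2 and 1 with mice numbered 11 and above. Colon against SI of WT PBS mice gave 1, 2 and 3 with DESeq2, the groups alone and mice numbered 11 and above. The cause was not tested.

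Leaving out 1 library at a time gave 0 to 1 members called in untreated MP by region, 0 to 3 in SMP by region, 1 to 4 between plexuses in colon and 4 to 5 in SI. It gave 2 in SI and 1 in colon at 2 h, 0 to 1 for the regions after PBS, 0 to 1 for LPS in WT SI, 1 to 2 in WT colon, and 0 in the other comparisons.

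Library numbers did not meet the rule for pairing. Same-number libraries correlated at 0.0928 on average (10 of 30 pairs over 0.1) in untreated mice and 0.0602 (5 of 24) at 2 h. The pairs at 2 h include libraries of PBS with libraries of LPS, which cannot be from 1 animal, so that average cannot decide on pairing. At 24 h, where the mouse is known, libraries of the same mouse correlated at 0.121 (10 of 15 pairs over 0.1). With the replicate block 3 members were called in SI at 2 h, Mmp13 among them (adjusted p = 0.0289, edgeR), 1 in colon, 1 in untreated MP by region, 4 between plexuses in SI and 3 in colon, where Mmp13 was gained and Mmp10 lost. Blocking on the mouse gave 0 for both comparisons of regions at 24 h.

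Low counts limit Mmp10, Mmp13 and Adamts9, and each group held 4 to 6 libraries.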
